A study of Mus musculus with 2 samples.

Results

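The pentose phosphate pathway branches off glycolysis at glucose 6-phosphate, and the transcripts of its 8 enzymes, H6pd, Pgls, Pgd, Rpia, Rpe, Tkt and Taldo1 among them, were examined here. They were chosen by gene name, as the enzymes of the pathway, and all 8 were present among the 22838 genes of the table. The cells were NIH3T3, an established line of mouse embryonic fibroblasts. The untreated group was 1 library of cells without ALA, and the treated group was 1 library of cells that had received ALA at 100 µM over 16 h. ALA is 5-aminolevulinic acid in the heme setting of the study, since it is the precursor from which heme is built, and the labels give only the abbreviation. Both groups share the line, and the labels give no difference in genotype. Since each condition was sequenced once, the spread between cultures is unknown, and p-values are not given.

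The oxidative arm of the pathway takes glucose 6-phosphate to ribulose 5-phosphate and yields NADPH, the reductant for lipid synthesis and for the glutathione and thioredoxin systems. The non-oxidative arm interconverts pentose phosphates with the glycolytic intermediates fructose 6-phosphate and glyceraldehyde 3-phosphate, and supplies ribose for nucleotides. Its reactions run in either direction, so the arm can serve NADPH, ribose or glycolysis as the cell requires. The comparison asks whether these transcripts were lower together with those of glycolysis.

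In the ALA library 7 of the 8 enzymes had higher levels than in the untreated library and Tkt was marginally lower, with a median log2 ratio of 0.26. Among all 10929 genes whose levels in both libraries averaged 1 FPKM or more, called measured here, 47.8% were higher, 52.2% were lower and the median was -0.02. Scaled to equal library totals, 8 of 8 enzymes and 56.9% of measured genes were higher. All 17 measured genes of the glycolysis list were lower in the deposited scaling, 15 of them with equal totals and 16 with equal medians, with a median of -0.76. The log2 ratio is log2((ALA FPKM + 1)/(untreated FPKM + 1)), where FPKM is fragments per kilobase of transcript scaled to sequencing depth, a level per transcript length, and a fold is the plain ratio of FPKM values. None of the 8 enzymes was 1.5-fold apart on that scale, in either direction, beside 5.90% of measured genes past that fold upward and 7.16% downward. At 1.25-fold, a threshold chosen after the values were seen, H6pd, Pgd, Pgls and Rpe were higher, 4 of 8 beside 16.0% of measured genes.

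The regions before the transcription starts are shown for the enzyme genes Pgd and Tkt and for Pgk1, a glycolytic gene. Pgd was higher in the ALA library, while the direction of Tkt rests on the scaling. RefSeq promoter windows on GRCm38.p6 were matched by symbol for all 8 enzymes and for 20 of the 21 genes of the glycolysis list, and the 250 bases before each start were searched on both strands. Capitals mark matches to ACGTG and GCGTG (both spellings of the core bound by hypoxia-inducible factors), GGGCGG (the GC box) and CCAAT. Each window is written 5′ to 3′ on the strand of its gene. Pgd is shown as the enzyme with the largest gain in FPKM (chr4:149166706-149166955, minus strand), Tkt as the enzyme that was not higher (chr14:30548881-30549130, plus strand) and Pgk1 for contrast (chrX:106186850-106187099, plus strand).
Pgd: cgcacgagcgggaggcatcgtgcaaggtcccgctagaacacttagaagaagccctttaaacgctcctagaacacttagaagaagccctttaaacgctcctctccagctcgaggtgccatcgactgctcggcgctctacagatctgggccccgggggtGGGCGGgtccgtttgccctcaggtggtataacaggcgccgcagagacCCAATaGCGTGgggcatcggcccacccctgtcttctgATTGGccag
Tkt: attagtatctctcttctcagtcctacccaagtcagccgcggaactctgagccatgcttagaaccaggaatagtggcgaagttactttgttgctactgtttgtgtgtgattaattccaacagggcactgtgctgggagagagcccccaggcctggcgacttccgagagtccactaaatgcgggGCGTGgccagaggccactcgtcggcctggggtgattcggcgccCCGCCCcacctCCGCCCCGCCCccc
Pgk1: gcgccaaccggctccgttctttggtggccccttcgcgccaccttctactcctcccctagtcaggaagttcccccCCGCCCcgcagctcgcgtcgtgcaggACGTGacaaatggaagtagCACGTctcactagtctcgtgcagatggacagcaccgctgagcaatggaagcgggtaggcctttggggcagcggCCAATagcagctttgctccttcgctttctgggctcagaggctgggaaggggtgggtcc

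The Pgk1 window held ACGTG on both strands, at 150 to 146 and at 131 to 127 bases before the start. No enzyme of the pentose phosphate pathway had ACGTG in its windows, against 9 of 20 glycolysis genes (45%) and 18.5% of all genes. Whether the match goes with the size of the log2 ratio in the glycolysis genes was not tested. Those with it ran from Hk2 at -1.23 to Pfkm at -0.21 and Pfkfb3 at -0.02. Measured ones without it ran from Pfkl at -1.18 to Eno3 at -0.02. GCGTG, in contrast, was found for 6 of the 8 enzymes, for 13 of 20 glycolysis genes and for 30.9% of all genes. The E-box CACGTG, which contains ACGTG, was found for none of the 8, for 3 of 20 glycolysis genes and for 6.86% of all genes. GC boxes were found for every enzyme except H6pd, against 13 of 20 glycolysis genes and 35.4% of all genes. The GC content of all windows had a median of 52.4%. It was 54.4% to 64.4% for Pgls, Rpia, Rpe, Tkt, Taldo1 and the Pgd window shown. The other Pgd window had 52% and that of H6pd 38.8%. The part of base composition in the counts of GCGTG and GC boxes was not tested. CCAAT was found for H6pd, Pgd and Taldo1, for 8 of 20 glycolysis genes and for 37.5% of all genes. The windows of H6pd and Tkt lie inside the GENCODE genes, which begin further upstream, and those of Pgls and Rpia overlap their genes in part. Pgd has 2 windows, of which the one shown overlaps the gene in part and the other lies inside it. These are matches of letters in 250-base windows, and no binding was measured.

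Fibroblast markers were abundant in both libraries. Of 12 fibroblast markers 10 were measured, Col1a2 at 1659 FPKM untreated and 1501 FPKM with ALA among them, while Lum and Fap were listed at 0 in both. Of these 10 markers 9 were lower in the ALA library, beside 52.2% of all measured genes, with a median log2 ratio of -0.26. The list summed to 12940 FPKM untreated and 11290 FPKM with ALA. None of the lists of 5 epithelial, 4 endothelial and 5 erythroid markers, each taken alone, summed to more than 1.24 FPKM in either library. Of 6 macrophage and blood markers Lyz2 and Cd14 were measured, and both were lower in the ALA library. Under the filter, Ptprc (0.367 and 0.754 FPKM) and Cd68 (0.237 and 1.40 FPKM) were higher. Emr1 and Csf1r were at 0 FPKM untreated and at most 0.0466 FPKM with ALA. The list summed to 28.96 FPKM untreated and 16.5 FPKM with ALA. The part of these differences in the enzyme values was not tested. In bulk RNA, fewer cells of a type and less RNA per cell cannot be told apart. From the steps between low FPKM values the depth was about 24500000 reads for the untreated library and 33200000 for the ALA library, which allows approximate counting intervals at 95%. They cover counting error only, not variation between cultures.

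Levels of the enzymes spanned a wide range, and their order was the same in both libraries. Taldo1 was the most abundant, followed by Pgd and Tkt, while Rpe, H6pd and Rpia were the least abundant in that order.

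**Figure D1:**
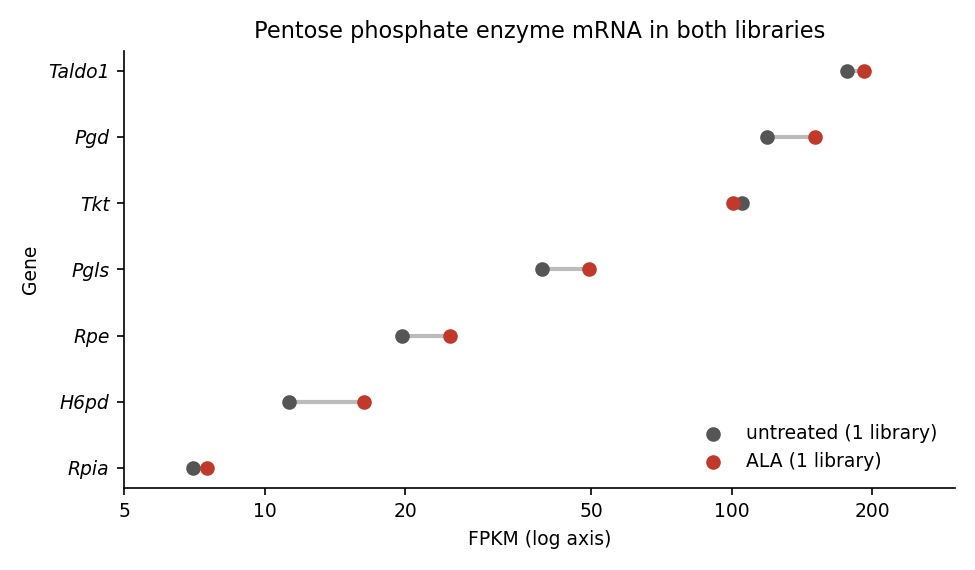
FPKM of 7 pentose phosphate enzymes on a log axis, with 1 point per library and a line joining the untreated and the ALA library. The order of the genes from Taldo1 at 177 and 192 FPKM to Rpia at 7.02 and 7.51 FPKM is the same in both libraries, and only the ALA point of Tkt lies to the left.

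Pgls and Pgd of the oxidative arm were both higher. Pgls encodes 6-phosphogluconolactonase, which opens the lactone formed at the first oxidative step, and it had 39.2 and 49.5 FPKM, a fold of 1.26 (1.16 to 1.38). Pgd encodes 6-phosphogluconate dehydrogenase, which makes the second NADPH and releases ribulose 5-phosphate, and it had 119 and 151 FPKM. Its fold of 1.27 had a counting interval of 1.23 to 1.31 from about 6475 and 11123 reads, and its gain of 31.9 FPKM was the largest of the 8. Their log2 ratios of 0.33 and 0.34 exceeded 84.6% and 85.1% of measured genes.

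H6pd encodes hexose-6-phosphate dehydrogenase, which performs the first oxidative steps inside the endoplasmic reticulum and supplies NADPH there, apart from the cytosolic pool. Its level was 11.3 FPKM without and 16.3 FPKM with ALA. This was the largest fold of the 8 enzymes, 1.44 with a counting interval of 1.35 to 1.54, and its log2 ratio of 0.49 exceeded 91.6% of measured genes.

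The 4 non-oxidative enzymes ranged from slightly lower to moderately higher, with a median log2 ratio of 0.10. Rpe encodes ribulose-5-phosphate 3-epimerase, which makes xylulose 5-phosphate, and it had 19.6 and 24.9 FPKM, a fold of 1.27 (1.19 to 1.36). Rpia encodes ribose-5-phosphate isomerase, which makes the ribose 5-phosphate used for nucleotides, and it had 7.02 and 7.51 FPKM. Rpia is the least abundant of the 8, with about 315 and 456 reads, and its fold of 1.07 had a counting interval of 0.927 to 1.24, so a difference was not detectable at this depth. The epimerase and the isomerase compete for the same substrate, and the level of Rpe went from 279 to 332 FPKM per 100 FPKM of Rpia. No counting interval was computed for that ratio, and the counting error of Rpia enters it.

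Taldo1 encodes transaldolase, which moves dihydroxyacetone units between sugar phosphates, and it had 177 FPKM untreated and 192 FPKM with ALA. Its fold was 1.08, with a counting interval of 1.05 to 1.12. Tkt encodes transketolase, the thiamine-dependent enzyme that moves ketol units and links the pathway back to glycolysis, and it had 105 and 101 FPKM. It was the only enzyme of the 8 with a lower level, a fold of 0.956 (0.929 to 0.984) and a log2 ratio of -0.06. Setting both libraries to equal FPKM totals turned that ratio to 0.014, so the direction of Tkt rests on the scaling. Within each library, where no scaling enters, Tkt went from 59.5 to 52.5 FPKM per 100 FPKM of Taldo1, its partner in the carbon rearrangements.

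The counting interval of the log2 ratio did not hold 0 for any enzyme except Rpia, and all 8 ratios lay within the spread of single genes. For each enzyme the 1000 measured genes closest to it in mean FPKM were taken. All 8 log2 ratios lay inside the middle 95% of those genes, and 3 of them, Rpia, Tkt and Taldo1, also lay inside the middle 50%. Pgd had the highest rank among its neighbours: its log2 ratio of 0.34 exceeded 93.0% of its neighbours in level, whose middle 95% ran from -0.73 to 0.46. H6pd exceeded 92.9% of its neighbours, with a range of -0.75 to 0.70. No single enzyme stood outside the middle 95% of genes of like level.

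**Figure D2:**
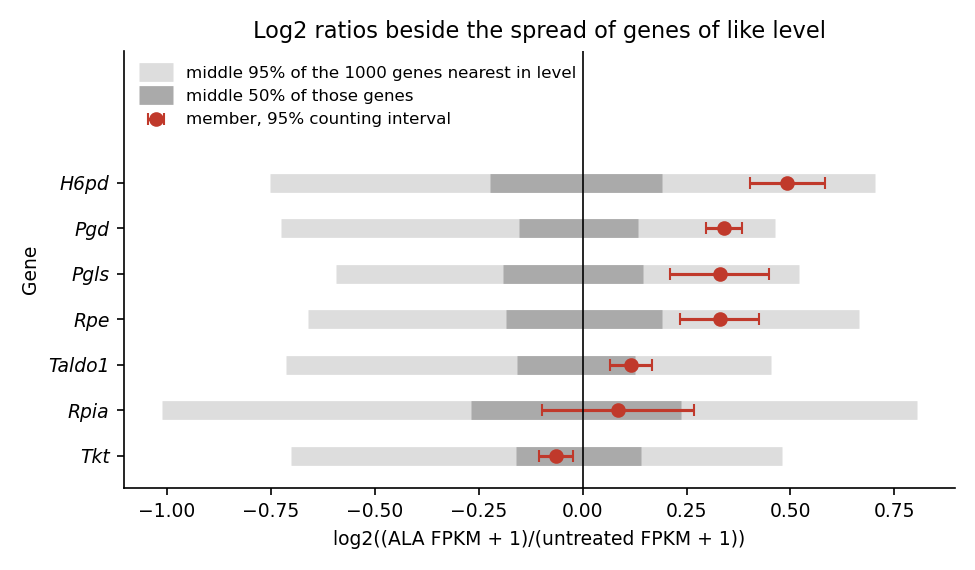
Log2 ratio of 7 pentose phosphate enzymes (red point, bar: 95% counting interval) beside the middle 95% (light grey) and middle 50% (dark grey) of the 1000 measured genes closest to it in mean FPKM. All 7 points lie inside the light bars, and Rpia is the only one whose counting interval holds 0.

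Reads of Rpe and Taldo1 may be shared with other genes. In the GENCODE vM21 annotation of GRCm38, Rpe lies on the plus strand of chromosome 1 from 66700831 to 66719805, and 558 bases (20.7%) of its principal transcript lie in exons of Kansl1l on the minus strand. Kansl1l had 6.97 FPKM untreated and 5.07 FPKM with ALA, lower where Rpe was higher, and with no strand setting given their reads there cannot be told apart. Summed, Rpe and Kansl1l had 26.6 and 30.0 FPKM, a log2 ratio of 0.17, under 1.25-fold, beside 0.33 for Rpe alone. The sum takes in all of Kansl1l, not only the 558 shared bases, so it is not a corrected value of Rpe. Taldo1, on the plus strand of chromosome 7 from 141392199 to 141402968, shares 17.9% of its 41-base stretches, the read length, with the locus Gm17823.

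H6pd, Pgd, Pgls, Rpia and Tkt share none of their principal transcript with annotated transcripts of other genes. They lie at the positions given here in the same build: H6pd (chromosome 4, 149979475 to 150009023, minus strand), Pgd (chromosome 4, 149149991 to 149166771, minus strand), Pgls (chromosome 8, 71592176 to 71601092, plus strand), Rpia (chromosome 6, 70765720 to 70792232, minus strand) and Tkt (chromosome 14, 30548359 to 30574720, plus strand). Their median log2 ratio was 0.33, with 1 of 5 lower.

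Glycolysis differed from the pentose phosphate pathway in direction and in size. Of the 17 measured glycolysis genes, 11 were at least 1.5-fold lower, beside 7.16% of all measured genes. Of the same 17 genes, 15 lay below every one of the 8 enzymes. The remaining 2, Eno3 and Pfkfb3, lay above Tkt at log2 ratios of -0.02 each, and below the other 7 enzymes. The gap between the medians was 1.02 on the log2 scale. Over the 7 glycolysis genes and 5 pentose phosphate enzymes with under 10% shared or overlapping sequence it was 0.77, since the glycolysis median was then -0.44. Had each enzyme differed by the median glycolysis fold of 0.582, Pgd would have had 69.4 FPKM in the ALA library in place of 151, and H6pd 6.57 FPKM in place of 16.3. The lowest glycolysis ratios were those of the hexokinase Hk2 at -1.23, the phosphofructokinase Pfkl at -1.18 and the glucose transporter Slc2a1 at -1.04. Pgk1 and Gapdh share 68.1% and 83.3% of their 41-base stretches with other loci, and none of the 8 enzymes shares more than 19.5%.

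Levels relative to glycolytic genes differed between the libraries. Pgd went from 8.72 to 20.2 FPKM per 100 FPKM of Pgk1. Where the non-oxidative arm meets glycolysis, Tkt went from 14.7 to 24.8 FPKM per 100 FPKM of the triose phosphate isomerase gene Tpi1, and Taldo1 from 19.3 to 37.9 FPKM per 100 FPKM of the aldolase gene Aldoa. Aldoa and Tpi1 share 21.3% and 11.4% of their stretches with other loci. These ratios are taken within 1 library and do not depend on the scaling between libraries. Most of each difference came from the glycolytic gene.

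**Figure D3:**
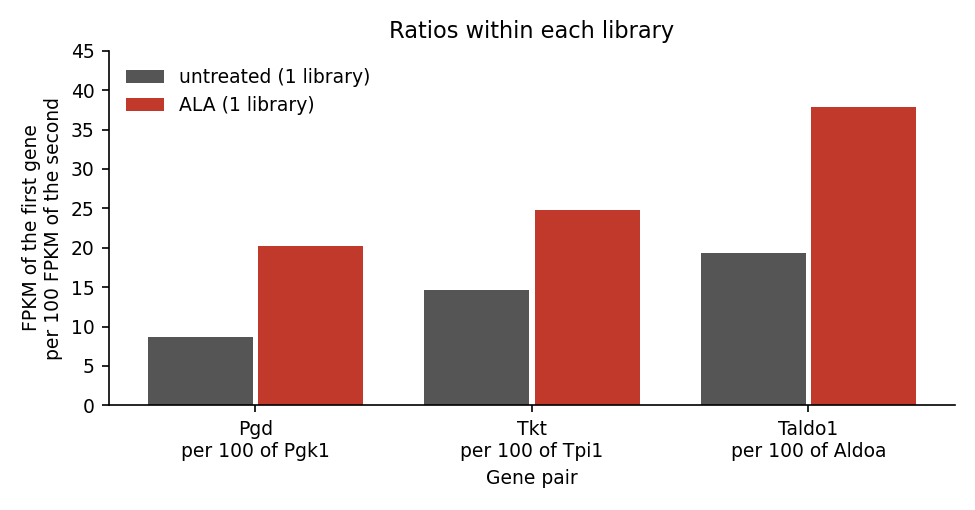
FPKM of Pgd, Tkt and Taldo1 per 100 FPKM of a glycolytic gene, in the untreated (grey) and the ALA library (red). Each ratio is higher in the ALA library: Pgd per Pgk1 8.72 and 20.2, Tkt per Tpi1 14.7 and 24.8, Taldo1 per Aldoa 19.3 and 37.9.

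Genes that use or replace the NADPH of the pathway were listed next. Of 17 measured genes for enzymes that use or bind NADPH, 14 had higher and 3 had lower levels with ALA. Higher levels were found for 47.8% of all measured genes. The median log2 ratio of the list was 0.17. With equal library totals 15 were higher, beside 56.9% of measured genes. The carbonyl reductase gene Cbr1 was at 0.59, 7.58 and 11.9 FPKM, and the thioredoxin reductase gene Txnrd1 at 0.56, 81.4 and 120 FPKM. Txnrd3, another thioredoxin reductase, was at 0.41. The most abundant member was the quinone reductase Nqo1, with 203 and 242 FPKM.

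Genes listed as other NADPH sources had no shared direction, with 6 of 11 measured genes higher, 5 lower and a median of 0.11. The list also holds genes whose enzymes do not themselves make NADPH, NAD kinases among them. The share of all measured genes that were higher was 47.8%. With equal library totals 7 were higher, beside 56.9% of measured genes, and the median was 0.18. Nadk2, the mitochondrial NAD kinase, was at 0.62, from 11.7 to 18.6 FPKM, and the folate enzyme gene Mthfd1 at 0.46. The mitochondrial NADP-dependent isocitrate dehydrogenase gene Idh2 was at 0.34, while Mthfd2l, a mitochondrial folate enzyme gene, was at -0.60 with 3.51 and 1.97 FPKM.

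Side branches were sparsely expressed: 5 of 12 listed genes in the table were measured. Of these 5 genes, 3 were higher and 2 lower, beside 47.8% of all measured genes higher. Dera, which encodes deoxyribose-phosphate aldolase and feeds deoxyribose 5-phosphate into glycolysis, had 9.62 and 16.1 FPKM, a log2 ratio of 0.68. Shpk, the kinase that makes sedoheptulose 7-phosphate for the non-oxidative arm, had 0.830 and 1.48 FPKM (0.44). The symbols of both phosphoglucomutases are exchanged between the table and RefSeq. The gene on chromosome 5 that the table calls Pgm1, the present Pgm2, encodes the phosphopentomutase of ribose metabolism and was at 0.45, with 12.4 and 17.4 FPKM. The gene on chromosome 4 that the table calls Pgm2, the present Pgm1, encodes the phosphoglucomutase of glycogen metabolism and was at -0.88, with 83.9 and 45.2 FPKM. The transketolase-like genes Tktl1 and Tktl2 had at most 0.0159 FPKM. Tigar, a fructose bisphosphatase that directs glucose 6-phosphate into the pathway and is listed under its older name 9630033F20Rik, had 0.809 and 0.607 FPKM.

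Downstream of ribose 5-phosphate the genes did not share a direction. Of 9 measured genes of ribose use, 4 were higher and 5 lower, with a median of -0.01, beside 47.8% of all measured genes higher. With equal library totals 8 were higher, beside 56.9% of measured genes, and the median became 0.06. Prps1, which makes phosphoribosyl pyrophosphate, was at 0.27 and shares 13.7% of its stretches with Prps1l3. Aprt, the adenine salvage enzyme and the most abundant of the list, was at -0.20, with 122 and 106 FPKM. Prpsap1 and Prpsap2, which encode partners of that synthetase, were at 0.18 and 0.11, and Prpsap2 shares 39.3% of its stretches.

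Genes of pentose and glucuronate conversion included 6 of 8 with lower levels, beside 52.2% of all measured genes, and their median was -0.12. With equal library totals 5 were lower, beside 43.1% of measured genes, and the median was -0.039. Xylb, the xylulokinase that adds xylulose 5-phosphate from outside the pathway, had 1.98 and 0.797 FPKM (-0.73), and the fructokinase gene Khk was at -0.44. Cryl1, a gulonate dehydrogenase gene, was at -0.43 and the sorbitol dehydrogenase gene Sord at -0.14, with Sord sharing 33.4% of its stretches. The most abundant was the aldehyde reductase Akr1a1, with 499 and 529 FPKM.

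**Figure D4:**
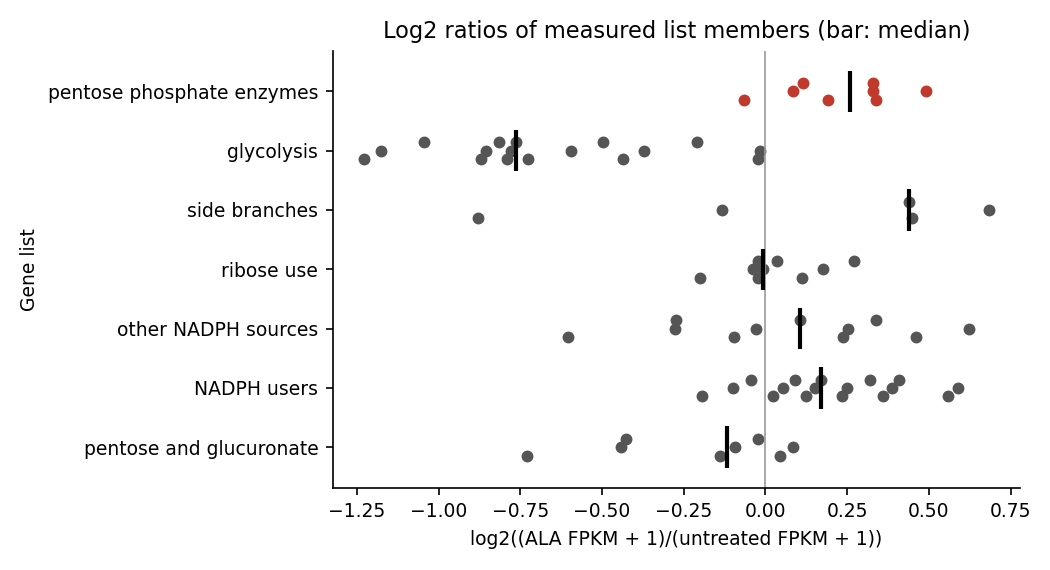
Log2 ratios of the measured members of 7 gene lists, 1 point per gene, with the list median as a black bar. The pentose phosphate enzymes (red) have a median of 0.26 and the glycolysis genes one of -0.76, and the medians of the other lists lie between -0.12 and 0.44.

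Among known regulators of the pathway, 3 of 8 measured genes were higher and 5 lower, beside 47.8% of all measured genes higher. Their median of -0.17 was -0.091 with equal library totals. Nfe2l2 encodes NRF2, a known activator of pentose phosphate genes, and it had 107 and 92.1 FPKM, a log2 ratio of -0.22. Bach1, a heme-regulated repressor of NRF2 target genes, was at -0.18, and Hif1a, the hypoxia-inducible factor subunit, at -0.21. Trp53, whose protein restrains the pathway, was at 0.40 with 69.8 and 92.3 FPKM, and shares 13.3% of its stretches with a pseudogene. These are mRNA levels of regulators whose activity is largely set on the protein, which was not measured.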

How the data were processed

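RNA of NIH3T3 cells was sequenced as single-end reads of 41 bases from TruSeq libraries, per the labels' protocols. The authors deposited 1 table of FPKM values in the layout of Cufflinks, per the file headers. FastQC 0.11.5, TopHat2 2.1.1, Cufflinks 2.2.1 and build mm10 are named in the submitters' processing notes. The annotation, the program options, the strand setting and how libraries were scaled were not given in the sources used here. Lower and upper bounds were equal in 100% of rows and carry no error.

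From the deposited FPKM the log2 ratio was computed with Python 3.11.15 and pandas 2.3.3, after adding 1 FPKM to each value, so ratios of low genes come out too small. The filter on the mean of both libraries, 1 FPKM or more, kept 10929 genes, all 8 enzymes among them. No count model was used. Depth was estimated from ratios of values between 0.001 and 0.1 FPKM: 34.9% of 461 genes had ratios of small whole numbers within 0.06 log2 at the best scaling, against 14.3% at others. The absolute step was fitted on 2176 genes with 1 transcript, where 26% of steps were whole within 0.08 reads against 15% at other depths, and 21100000 to 24900000 reads served nearly as well for the untreated library. Reads per gene are FPKM times the length of the GENCODE vM21 principal transcript (GRCm38, which mm10 names) times depth, and are approximate. Shared sequence is the share of its 41-base stretches found in annotated transcripts of other genes. The functions were tested on simulated data.

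Members, gene lists and folds were chosen with earlier results of these data known. Named genes are the enzymes and, per list, up to 4 with the largest log2 ratio in either direction. The most abundant one is named as well, except in the glycolysis list. Glycolytic genes that share metabolites with the pathway (Aldoa, Tpi1 and Gapdh among them) are also named. Eno3, Pfkm and Pfkfb3, Tigar, the transketolase-like genes, overlap partners and markers were named after their values were seen. Some genes, 1 of the 8 enzymes included, are not reported here singly, but are counted in the lists. Alternatives were the added FPKM, the scaling, the filter, shared sequence, the mean in place of the median and each enzyme left out.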

Additional observations from a re-analysis of the deposited data

How the results depend on the processing

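No paired analysis was possible because each group has 1 library, and likewise no library could be left out. Over the alternatives run, the median of the pentose phosphate enzymes stayed between 0.19 and 0.34, each enzyme left out in turn included, and none of the 8 was 1.5-fold lower. The glycolysis median of -0.76 was -0.72 with 5 FPKM added, -0.69 with equal library totals, -0.59 with no filter, -0.44 over genes with under 10% shared or overlapping sequence and -0.66 as a mean. The difference of 1.02 between the medians was 0.85 with no filter, 0.77 over genes with little shared sequence and 0.89 between means. The cause of these shifts was not tested, beyond the fewer or additional genes that the filters bring in. With equal library totals, which raise log2 ratios by up to 0.08, Tkt was at 0.014 and 0 of 8 enzymes were lower in place of 1. At 1.25-fold, chosen after seeing the data, 4 enzymes were higher in place of 0. There were 32 values of single enzymes under other added FPKM or scaling (the filters cannot move them). Of these, 27 stayed inside the enzyme's counting interval, 4 moved outside it without changing sign, and 1 was the change of sign of Tkt. Counting error limits Rpia most, while variation between cultures is unknown for every gene.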
